A study of Mus musculus with 4 samples.

Results

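The 8 genes described here encode chemokines that attract T cells, namely Cxcl9, Cxcl10, Cxcl11, Cxcl16, Ccl5, Ccl20, Cx3cl1 and Cxcl12. They were taken by symbol from the 55335 genes of an RNA-seq series on CT26, a mouse colon carcinoma cell line. The series holds 4 libraries of cultured cells. CT26_102 and CT26_CTL carry the labels FOSL2-WT and PBS, whereas CT26_102_R and CT26_CTL_R carry FOSL2-KO and chemoradiotherapy. In the labels, genotype and treatment therefore change together, and their effects cannot be told apart. The titles also divide the libraries the other way, into the CT26_102 pair (CT26_102 and CT26_102_R) and the CT26_CTL pair (CT26_CTL and CT26_CTL_R), each with 1 library of either labelled group. The labels do not say what these title stems or the suffix R mean. The labels give no dose, drug, time after treatment or deletion strategy. They also do not say whether each library is a culture of its own. The spread behind each p-value is drawn from these samples alone and may be technical. No combination of stem and suffix has a second library, so it is not a spread between replicates.

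Chemokines are small secreted or membrane-anchored proteins that guide cells along a concentration gradient by binding receptors coupled to G proteins. Cxcl9, Cxcl10 and Cxcl11 bind Cxcr3, which is carried by activated T cells and natural killer cells, and are classically induced by interferons. Ccl5 is induced by NF-kB and interferon regulatory factors, Ccl20 binds Ccr6, and Cxcl12 binds Cxcr4. Cxcl16 and Cx3cl1 are made as transmembrane proteins that metalloproteases can release from the cell surface. In tumours, the Cxcr3 ligands and Ccl5 are known for their association with infiltrating CD8+ T cells.

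Of the 8 genes, 2 were transcribed at more than 1 FPKM (fragments mapped to a gene, per kilobase of its length and scaled to library size) in every library, namely Cxcl10 and Ccl5, and Ccl20 exceeded 1 FPKM only in the libraries of the CT26_CTL pair. Cxcl10 and Ccl5 rose in the libraries with the suffix R in both stems, and all 3 were lower in the CT26_102 pair than in the CT26_CTL pair. The remaining 5 genes stayed under 1 FPKM in each library, and Cxcl9 and Cxcl12 were listed at 0 throughout.

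The approximate depth, read from the spacing of low FPKM values, was between 21.7 M and 26.44 M reads per library, and between 11280 and 11904 genes reached 1 FPKM. Fosl2, the gene named in the genotype labels, was at 9.35 FPKM in CT26_102 and 12.69 in CT26_CTL, against 15.97 in CT26_102_R and 19.22 in CT26_CTL_R. The 2 libraries with the knockout label were the highest, so the transcript went against the genotype label. The series' design text speaks of KD cells and the labels of KO, and neither says which part of the gene or transcript was targeted. Directions below refer to the suffix R and to the title stems. Of 8 markers of colon epithelium, Krt18 and Krt20 were at 24.49 FPKM or more in each library, whereas Epcam and Cdx2 were listed at 0 in all 4. Krt8 reached 3.82 FPKM in CT26_102 and 2.74 in CT26_102_R but only 0.461 in CT26_CTL and 0.652 in CT26_CTL_R, and Cdh1, Krt19 and Vil1 were at most 0.151. Cd3e, Klrb1c and Ncr1 of 9 T and natural killer cell markers were listed at 0 in all 4 libraries, and the summed level of those 9 markers was between 0.152 and 0.753 FPKM. Nkg7 was at 0.0759 FPKM in CT26_102 and 0.610 in CT26_102_R, and at 0.0622 in CT26_CTL and 0.354 in CT26_CTL_R. Each other marker of the 9 was at most 0.1045 FPKM. All 9 stayed under 1 FPKM, so none was tested.

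The bases before the transcription start of 3 of the genes are shown. Cxcl10 was the most abundant of the 8, and Cxcl9 is the neighbour of Cxcl10 that was listed at 0. Ccl20 was the 1 tested gene whose stems did not overlap. It was tested only because it exceeded 1 FPKM in the CT26_CTL pair, so that separation was fixed by the filter on low values. RefSeq sequences (GRCm38.p6, the C57BL/6J reference and not read from these cells) were at hand for 5 of the 8 genes. The windows are the 250 bases upstream of the start, chr5:92348890-92349139 on the minus strand for Cxcl10, chr1:83116516-83116765 on the plus strand for Ccl20 and chr5:92328080-92328329 on the minus strand for Cxcl9. Capitals mark matches on either strand to an interferon-stimulated response element (ISRE: GAAA, any 2 bases, GAAA), an NF-kB motif (GGG, any 3 bases, TTCC) or an AP-1 motif (TGANTCA), the last being the motif bound by dimers that contain Fosl2.
Cxcl10: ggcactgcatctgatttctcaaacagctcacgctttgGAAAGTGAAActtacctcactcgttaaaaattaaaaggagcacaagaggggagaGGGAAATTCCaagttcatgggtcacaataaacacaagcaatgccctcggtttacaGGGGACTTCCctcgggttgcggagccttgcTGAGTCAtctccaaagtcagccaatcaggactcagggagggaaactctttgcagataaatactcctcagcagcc
Ccl20: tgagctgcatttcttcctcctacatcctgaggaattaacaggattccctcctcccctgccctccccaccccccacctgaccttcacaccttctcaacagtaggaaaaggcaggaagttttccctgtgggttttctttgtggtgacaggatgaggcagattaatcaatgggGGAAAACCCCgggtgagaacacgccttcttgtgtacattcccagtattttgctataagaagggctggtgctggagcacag
Cxcl9: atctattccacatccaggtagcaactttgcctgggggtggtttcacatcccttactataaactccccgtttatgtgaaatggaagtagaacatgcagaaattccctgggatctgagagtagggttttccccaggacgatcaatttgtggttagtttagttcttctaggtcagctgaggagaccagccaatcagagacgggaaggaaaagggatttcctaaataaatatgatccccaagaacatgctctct

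The Cxcl10 window held 4 matches that did not overlap. An ISRE match, GAAAGTGAAA, lay from 213 to 204 bases before the start, NF-kB matches lay at 159 to 150 (GGGAAATTCC) and 104 to 95 (GGGGACTTCC), and an AP-1 match, TGAGTCA, lay at 74 to 68. The Ccl20 window held 1 match, the NF-kB motif on the reverse strand at 80 to 71 bases before the start (GGAAAACCCC as printed). The windows of Cxcl9, Cx3cl1 and Cxcl12 held none of these letters. Among the upstream windows of the same length in the whole table (32851 in number), 2.98% held the ISRE letters, 4.65% the NF-kB letters and 6.75% the AP-1 letters. A match describes letters only, sites of another length or spacing were not searched, and binding was not measured.

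**Figure D1:**
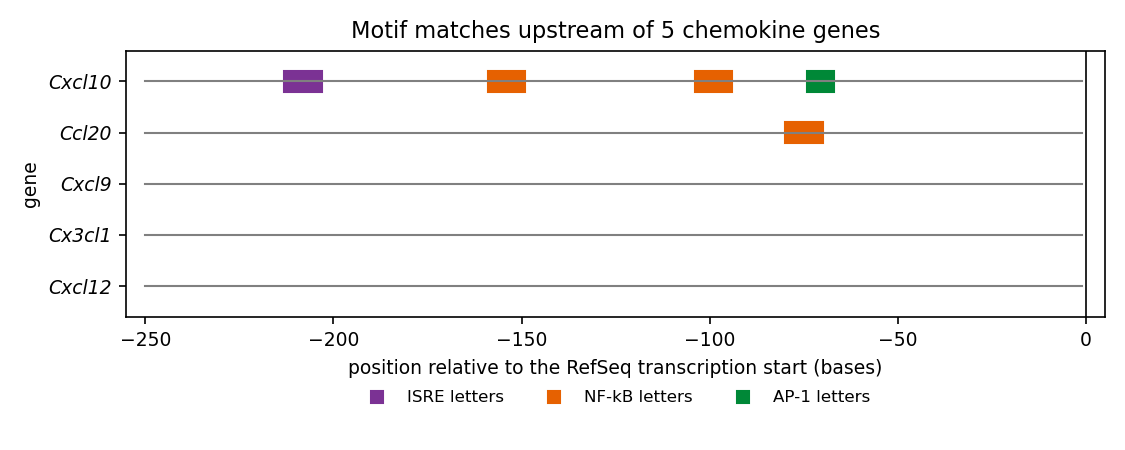
Motif matches in the 250 bases upstream of the RefSeq transcription start of 5 of the chemokine genes. The horizontal axis gives the position in bases relative to the start and each coloured box is 1 match; Cxcl10 holds 4 boxes, Ccl20 holds 1, and Cxcl9, Cx3cl1 and Cxcl12 hold none.

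Cxcl10, Cxcl9 and Cxcl11 form a cluster of 44.1 kb on chromosome 5 (GRCm38, 92321347 to 92365485, minus strand), yet their transcript levels lay far apart. Cxcl10 (ENSMUSG00000034855, chromosome 5, 92346638 to 92348889), the interferon-induced Cxcr3 ligand also called IP-10, was at 2.02 FPKM in CT26_102 and 25.75 in CT26_102_R, and at 21.54 in CT26_CTL and 106.4 in CT26_CTL_R. Both libraries with the suffix R were above both without it, and CT26_102 stood lowest by a wide margin. The rise within a stem was 12.7-fold in the CT26_102 pair and 4.94-fold in the CT26_CTL pair in FPKM, while the gain in FPKM itself was 23.7 in the CT26_102 pair and 84.9 in the CT26_CTL pair. On the scale of log2(FPKM + 1), which understates changes of low genes, the mean difference was 2.70 ± 0.23 (SE, n = 2 libraries per group, limma adjusted p = 0.0174), ranked 15 from the top among 11955 tested genes. Both values with the suffix R lay above both without it in 22.3% of tested genes, so that separation alone is frequent here.

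Cxcl9 (ENSMUSG00000029417, chromosome 5, 92321347 to 92328079), the Cxcr3 ligand that depends most strongly on interferon gamma, was listed at 0 in all 4 libraries. Cxcl11 (ENSMUSG00000060183, chromosome 5, 92359544 to 92365485) is annotated as a polymorphic pseudogene in the reference strain. Its level was listed at 0 in CT26_102 and was 0.0982 FPKM in CT26_102_R, 0.133 in CT26_CTL and 0.397 in CT26_CTL_R, in the same order as Cxcl10 except that CT26_102_R and CT26_CTL changed places. At the estimated depth these values correspond to about 9.04, 13.3 and 32.7 reads. Reads of the Cxcl11 exons cannot be told apart without strand from those of Gm2673, a processed pseudogene on the opposite strand that shares 1582 exonic bases with it and was listed at 0. Art3, which spans Cxcl10 and Cxcl11 on the opposite strand, shares 133 exonic bases with Cxcl10 and was at most 0.0385 FPKM.

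**Figure D2:**
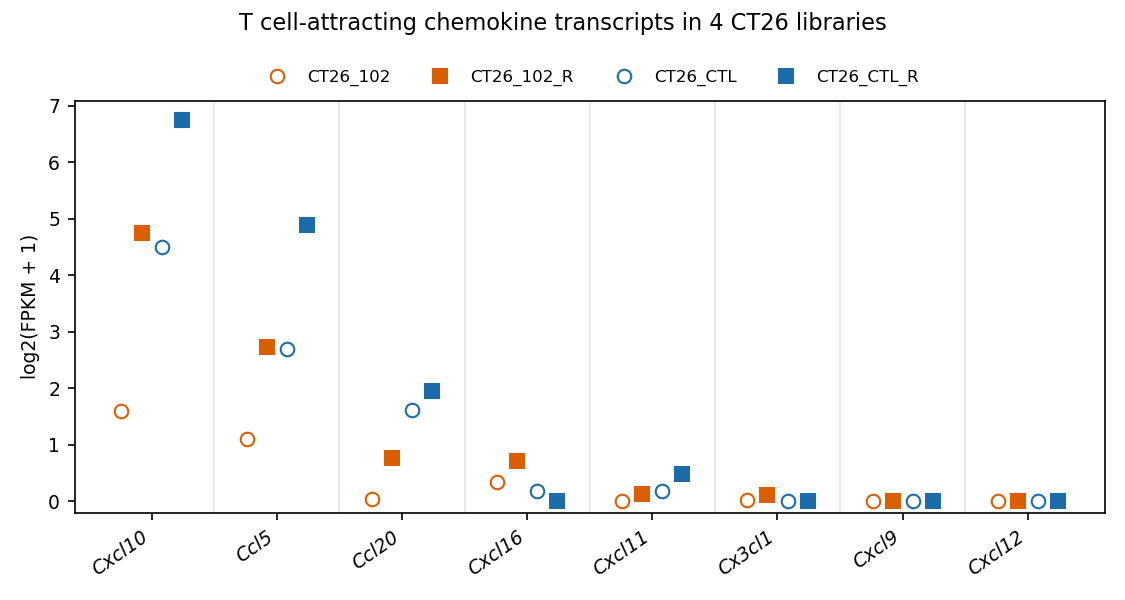
Level of each of the 8 chemokine transcripts as log2(FPKM + 1) on the vertical axis, with 1 point per library, open circles for libraries without the suffix and filled squares for those with R (orange, CT26_102 pair; blue, CT26_CTL pair). Cxcl10 and Ccl5 are highest in CT26_CTL_R and lowest in CT26_102, Ccl20 is seen mainly in the CT26_CTL pair, and the other 5 genes stay under 1 FPKM.

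Ccl5 (ENSMUSG00000035042, chromosome 11, 83525778 to 83530518, minus strand), also known as RANTES, followed the same order of libraries at a lower level. It was at 1.14 FPKM in CT26_102 and 5.61 in CT26_102_R, and at 5.47 in CT26_CTL and 28.69 in CT26_CTL_R. The groups with and without the suffix did not overlap, but CT26_102_R exceeded CT26_CTL by only 1.02-fold. The fold rise in FPKM was nearly equal in both stems, 4.92-fold in the CT26_102 pair and 5.24-fold in the CT26_CTL pair. The mean log2 difference was 1.91 ± 0.18 (SE, n = 2 per group, limma adjusted p = 0.0179).

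Ccl20 (ENSMUSG00000026166, chromosome 1, 83116766 to 83119167, plus strand) attracts Ccr6-bearing cells such as Th17 cells. Its level was 0.0326 FPKM in CT26_102 and 0.710 in CT26_102_R, and 2.06 in CT26_CTL and 2.88 in CT26_CTL_R. The suffix groups overlapped, since CT26_CTL lay above CT26_102_R. The value in CT26_102 corresponds to about 1 read, so no fold against it is given; within the CT26_CTL pair the ratio of R to none was 1.40. The log2 difference between suffix groups, 0.54 ± 0.17 (SE, n = 2 per group), did not pass (limma unadjusted p = 0.0277, adjusted p = 0.0979). With a pseudocount of 0.1 it was 1.54 ± 0.58 (limma adjusted p = 0.135).

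Of the 3 genes tested, 2 thus rose with the suffix R, beside 7.57% of the 11955 tested genes called higher and a median log2 difference over all tested genes of 0.0042. Calls for the suffix were higher in 58.7% of cases, or 48.1% with upper-quartile rescaling. The 8 genes were chosen with earlier results of these data known, so this share describes these genes only. Without the stem as a term in the fit, neither call held (limma adjusted p = 0.481 for Cxcl10 and 0.505 for Ccl5), with standard errors of 1.16 and 0.90, and without the filter on low values both adjusted p-values were 0.153. The fit with both terms left 1 residual degree of freedom, which is the difference between the 2 pairs and not a spread between replicates. Limma moderates it toward the variance of all tested genes, so each standard error is partly borrowed from other genes. An exact permutation test of 2 libraries against 2 cannot give a p below 0.333.

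**Figure D3:**
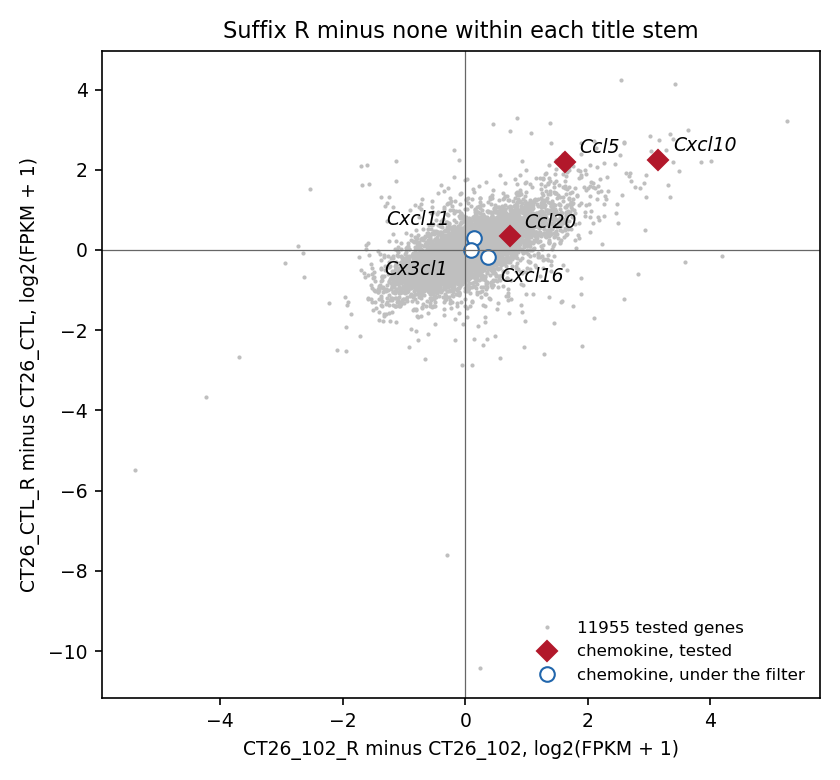
Difference between the library with the suffix R and the library without it, as log2(FPKM + 1), in the CT26_102 pair (horizontal axis) and in the CT26_CTL pair (vertical axis), for 11955 tested genes (grey) and 6 of the chemokines. Cxcl10 (3.15 and 2.25) and Ccl5 (1.63 and 2.20) lie at the upper right edge. Ccl20 (0.73 and 0.34) lies within the cloud of tested genes, with its mean difference ranked 1417 from the top. Cxcl16 falls below 0 in the CT26_CTL pair. Cxcl9 and Cxcl12 are omitted as listed at 0.

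The membrane-anchored chemokines were scarcely transcribed. Cxcl16 (ENSMUSG00000018920, chromosome 11, 70453983 to 70459984, minus strand), the Cxcr6 ligand and a scavenger receptor, was at 0.275 FPKM in CT26_102 and 0.647 in CT26_102_R but at 0.132 in CT26_CTL and listed at 0 in CT26_CTL_R. It was the 1 gene of the 8 whose direction with the suffix R differed between stems, and it was higher in the CT26_102 pair than in the CT26_CTL pair with either suffix. Zmynd15 on the opposite strand, which shares 552 exonic bases with Cxcl16, was at most 0.0514 FPKM. Cx3cl1 (ENSMUSG00000031778, chromosome 8, 94772009 to 94782427, plus strand), or fractalkine, was at 0.0134 FPKM in CT26_102 and 0.0842 in CT26_102_R, about 1.15 and 8.03 reads, and was listed at 0 in both libraries of the CT26_CTL pair. Cxcl12 (ENSMUSG00000061353, chromosome 6, 117168535 to 117181367, plus strand), a homeostatic chemokine made mostly by stromal cells, was listed at 0 in all 4 libraries. None of these 3 passed the filter on low values, so their differences were not tested; in the fit without that filter Cxcl16, Cx3cl1 and Cxcl11 had limma adjusted p of 0.801, 0.578 and 0.251 for the suffix.

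Between title stems, Cxcl10, Ccl5 and Ccl20 were all lower in the CT26_102 pair, whichever suffix the libraries carried. Cxcl10 in the CT26_CTL pair exceeded the CT26_102 pair by 10.6-fold without the suffix and by 4.13-fold with it, a log2 difference of -2.45 ± 0.23 (SE, the CT26_102 pair minus the CT26_CTL pair, n = 2 per stem, limma adjusted p = 0.00801). Ccl5 was 4.81-fold and 5.12-fold higher in the CT26_CTL pair (-1.88 ± 0.18, limma adjusted p = 0.00823). Ccl20 was 4.06-fold higher in CT26_CTL_R than in CT26_102_R, and its log2 difference between stems was -1.37 ± 0.17 (limma adjusted p = 0.0134), or -2.95 ± 0.58 with a pseudocount of 0.1 (limma adjusted p = 0.0337). The values of Ccl20 in the CT26_102 pair lay below both values of the CT26_CTL pair, a separation seen in 20.9% of tested genes, whereas for Cxcl10 and Ccl5 CT26_102_R lay above CT26_CTL. All 3 tested genes were thus called lower in the CT26_102 pair, against 9.44% of all tested genes called lower and 12.5% called higher. Ccl20 passed the filter only through the CT26_CTL pair, so its direction and separation between stems were fixed by the filter. Its call therefore adds nothing to this share. Of all calls between stems 57.0% were higher in the CT26_102 pair, or 47.5% with median-of-ratios rescaling. None of these calls held in a fit without the suffix as a term, in which the limma adjusted p was 0.394 for Cxcl10, 0.369 for Ccl5 and 0.176 for Ccl20.

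For Cxcl10 and Ccl5 the library with the suffix R in the CT26_102 pair resembled the library without it in the CT26_CTL pair. CT26_102_R was at 1.20 times CT26_CTL for Cxcl10 and at 1.02 times for Ccl5, but at 0.345 times for Ccl20 and 4.90 times for Cxcl16. These are ratios of 1 library to 1, with no replicate check. The suffix differences within stems also differed, by 0.89 log2 units for Cxcl10 (larger in the CT26_102 pair) and by -0.57 for Ccl5 (larger in the CT26_CTL pair). With 1 library for each combination of stem and suffix, that difference of differences has no error estimate and was not tested.

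FPKM is scaled to length, so levels can be set side by side between genes. In each library Cxcl10 ranked above Ccl5, and Ccl5 above every other gene of the 8. The Cxcl10 level was 1.78 times the Ccl5 level in CT26_102 and 4.59, 3.94 and 3.71 times in CT26_102_R, CT26_CTL and CT26_CTL_R. Cxcl10 made up 58.1% of the summed FPKM of the 8 genes in CT26_102 and between 73.4% and 78.3% in the other libraries. That sum was lowest in CT26_102 (3.48 FPKM), near equal in CT26_CTL (29.3) and CT26_102_R (32.9), and highest in CT26_CTL_R (138.4). Below Ccl5 the order varied, with Cxcl16 at rank 3 in CT26_102 and Ccl20 at that rank in the other libraries.

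Set among 37 chemokine genes, the 8 and 29 others, Cxcl10 had the highest level in 3 libraries and ranked 2 in CT26_102, and Ccl5 ranked 3 in all 4. Of the 29 others, 10 were listed at 0 in every library and 5 passed the filter, of which 2 rose with the suffix R and 3 did not pass, beside 7.57% of all tested genes called higher. Cxcl1, which attracts neutrophils through Cxcr2, was at 0.963, 10.85, 11.14 and 76.97 FPKM (CT26_102 and its R library first, then CT26_CTL and its R library, as in each run of values that follows). Its log2 difference was 2.64 ± 0.13 with the suffix (SE, n = 2 per group, limma adjusted p = 0.00886) and -2.67 ± 0.13 between stems (adjusted p = 0.00321). Ccl4, also called MIP-1 beta, was at 0.770, 3.60, 1.11 and 17.92 FPKM and rose with the suffix (2.27 ± 0.42, limma adjusted p = 0.0392), while its stem difference did not pass (adjusted p = 0.111). The median log2 difference of the 5 was 0.33 for the suffix, beside 0.0042 over all tested genes.

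The genes whose levels moved most like each chemokine over the 4 libraries were found by Euclidean distance between log2(FPKM + 1) values centred on their mean. For Cxcl10 these were Csf2, which encodes GM-CSF, at 0.0578, 7.55, 4.36 and 37.45 FPKM (distance 0.470), and Cxcl1 (distance 0.543). For Ccl5 they were Gadd45g, a stress-induced growth arrest gene, at 13.42, 39.32, 40.35 and 195.0 FPKM (distance 0.108), and the unnamed locus AC122371.5 (distance 0.343). For Ccl20 they were Grina at 75.28, 115.5, 221.7 and 265.0 FPKM and the collagenase gene Mmp13 at 1.01, 2.33, 5.46 and 7.0 FPKM, each at a distance of 0.104. This scale understates changes of low genes, and Ccl20 stood at about 1 read in CT26_102. A small distance therefore does not mean similar fold changes, for Ccl20 above all. Likeness over 4 libraries among 11955 genes is a weak description and says nothing of shared control.

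Transcripts of the receptors were mostly under 1 FPKM. Of 10 receptor and decoy receptor genes for the 8 chemokines, 9 stayed under 1 FPKM in each library, and Cxcr3 and Cxcr4 were listed at 0 in all 4. Ccr1, a receptor that Ccl5 shares with other chemokines, was the exception at 0.440, 2.44, 6.31 and 8.60 FPKM. It was lower in the CT26_102 pair (-1.91 ± 0.24 log2 units, SE, n = 2 per stem, limma adjusted p = 0.0130), and its suffix difference did not pass (0.82 ± 0.24, adjusted p = 0.0783).

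Of 3 enzymes that process these chemokines, Adam10 and Adam17 passed the filter. Adam10, a metalloprotease that cleaves Cxcl16 and Cx3cl1 from the membrane, fell with the suffix R from 11.74 to 6.29 FPKM in the CT26_102 pair and from 9.02 to 1.48 in the CT26_CTL pair (-1.41 ± 0.30, SE, n = 2 per group, limma adjusted p = 0.0469, a call lost with a pseudocount of 0.1 or 0.5 or without the variance trend), beside 5.32% of all tested genes called lower. Adam17, which sheds Cx3cl1 among many substrates, was at 8.65, 6.55, 5.91 and 3.77 FPKM. It did not pass for the suffix (adjusted p = 0.0895) and was higher in the CT26_102 pair (0.57 ± 0.14, limma adjusted p = 0.0449, a call lost with median-of-ratios rescaling or with the length trend removed). Dpp4, whose product truncates and inactivates several of these chemokines, was at most 0.0130 FPKM.

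Of 9 cytokines known to induce these chemokines, only Ifnb1 passed the filter. It did so only through the libraries with the suffix R, so its direction with the suffix was fixed by the filter. Ifnb1, the gene of the antiviral cytokine interferon beta, stood at 0.0543, 5.17, 0.458 and 26.44 FPKM and rose with the suffix (3.39 ± 0.40 log2 units, SE, n = 2 per group, limma adjusted p = 0.0209), while its stem difference did not pass (adjusted p = 0.0745) except with a pseudocount of 0.1. The level of Ifnb1 in CT26_102_R was 11.3 times that in CT26_CTL, where the ratio was 1.20 for Cxcl10 and 1.02 for Ccl5. Ifnb1 lay under 1 FPKM in CT26_CTL, so its ratio is uncertain, and each ratio compares 1 library with 1. A link between Ifnb1 and the chemokine levels was not tested. Ifng, Il1b and Il17a were listed at 0 in all 4 libraries, and Tnf was at most 0.471 FPKM. All 7 receptor genes for interferons, TNF and interleukin-1 passed the filter, and for the suffix limma called 0 of them, with 0 at an unadjusted p under 0.05. This count stands beside 7.57% of all tested genes called higher and 5.32% called lower. Between stems only Il1r1 differed, higher in the CT26_102 pair at 7.73 and 6.87 against 3.51 and 2.25 FPKM (limma adjusted p = 0.0153). This 1 of 7 stands beside 12.5% of all tested genes called higher in the CT26_102 pair, so the share is near the background.

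Of 11 transcription factors known to act on these chemokine genes, 2 rose with the suffix R and 9 did not pass (median log2 difference 0.05), beside 7.57% of all tested genes called higher. Rela, the p65 subunit of NF-kB, was at 15.86, 51.79, 23.52 and 40.67 FPKM and rose by 1.21 ± 0.23 log2 units (SE, n = 2 per group, limma adjusted p = 0.0408). Irf7, which sustains interferon production, was at 24.49, 34.12, 85.51 and 137.9 FPKM and rose by 0.57 ± 0.12 (limma adjusted p = 0.0470), a call lost with each other pseudocount, scaling and variance setting tried, which leaves 1 of 11. Between stems 3 of the 11 were lower in the CT26_102 pair and 8 did not pass, beside 9.44% of all tested genes called lower. These were Irf7 (-1.87 ± 0.12, limma adjusted p = 0.00430) and the NF-kB subunits Relb (-1.14 ± 0.23) and Nfkb2 (-0.86 ± 0.15). Irf1, a classical inducer of Cxcl10, did not pass in either comparison and was at 6.69, 6.05, 14.11 and 6.05 FPKM. It was chosen for mention with its values known.

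Of 8 genes for feedback inhibitors of these factors, 2 rose with the suffix R and 6 did not pass, beside 7.57% of all tested genes called higher. These were the inhibitors of NF-kB Nfkbia, at 12.36, 22.47, 14.75 and 30.19 FPKM (0.90 ± 0.13, SE, n = 2 per group, limma adjusted p = 0.0274), and Nfkbib, at 11.20, 38.40, 22.03 and 54.61 FPKM (1.48 ± 0.15, adjusted p = 0.0187). Nfkbib and Usp18, an interferon-induced brake on the interferon receptor, were lower in the CT26_102 pair, with log2 differences of -0.71 ± 0.15 and -1.14 ± 0.22 (limma adjusted p = 0.0363 and 0.0280), beside 9.44% of all tested genes called lower. Usp18 was at 34.41, 72.64, 103.7 and 119.8 FPKM and did not pass for the suffix (adjusted p = 0.110).

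**Figure D4:**
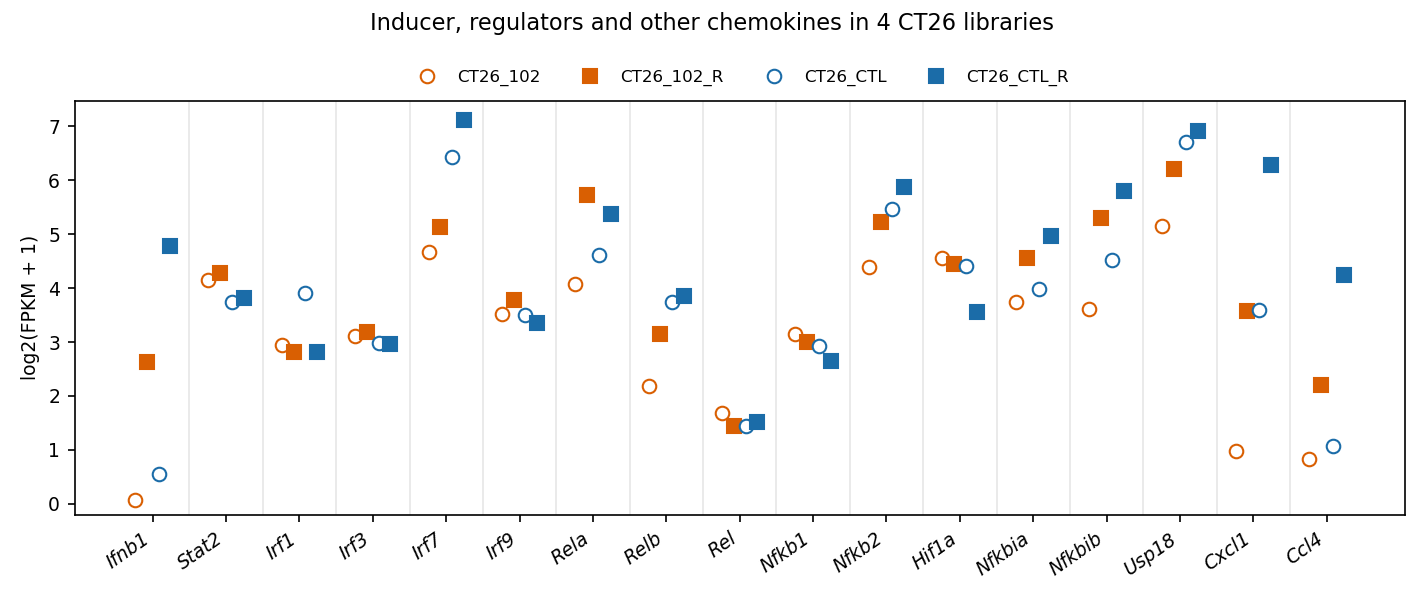
Level as log2(FPKM + 1) on the vertical axis of Ifnb1, 11 transcription factor genes, 3 feedback inhibitor genes and 2 other chemokine genes, with 1 point per library and the symbols of the plot of the 8 chemokines. Ifnb1, Rela, Irf7, Relb, Nfkb2, Nfkbia, Nfkbib, Usp18, Cxcl1 and Ccl4 lie higher with the suffix R in both stems, and Stat2 slightly so. Irf1, Nfkb1 and Hif1a lie lower with it in both stems. Not all of these differences passed the threshold. Irf3, Irf9 and Stat2 lie close together across libraries.

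Markers of other cell types moved with some of these comparisons. The summed level of the myeloid markers was 29.7, 92.2, 38.2 and 43.5 FPKM, most of it from Lyz2 (15.02, 53.07, 13.05 and 4.36) and Cd14 (12.40, 34.80, 22.00 and 38.81). Cd14, a co-receptor for bacterial lipopolysaccharide, rose with the suffix R (1.10 ± 0.19, SE, n = 2 per group, limma adjusted p = 0.0337), and it was the only myeloid marker of 4 tested to do so, beside 7.57% of all tested genes called higher. Csf1r (1.096, 1.998, 0.9649 and 0.1585 FPKM) and Fcer1g (0.7764, 1.583, 1.616 and 0.04201 FPKM) were not called. Like Lyz2, both went up with R in the CT26_102 pair and down in the CT26_CTL pair. Ptprc, the marker of all leukocytes, was at most 0.0880 FPKM, and Adgre1 at most 0.132. The summed fibroblast markers were 233, 108, 113 and 81.0 FPKM and the endothelial ones at most 0.719. Most of the fibroblast sum came from Col1a1, Col1a2 and Col3a1. Lum was listed at 0 in all 4 libraries, Dcn was at most 0.142 FPKM and Acta2 at most 0.557. Pdgfra and Pdgfrb were at most 1.57 and 9.73 FPKM. Col1a2 fell with the suffix (adjusted p = 0.0436), and Col3a1 was higher in the CT26_102 pair at 52.97 and 19.83 against 0.568 and 0.144 FPKM (4.65 ± 0.24, limma adjusted p = 0.00325). Col1a1 was also higher in the CT26_102 pair, at 60.72 and 30.65 against 21.82 and 17.32 FPKM (1.11 ± 0.19, limma adjusted p = 0.0220). These were 2 of 5 fibroblast markers tested, beside 12.5% of all tested genes called higher there. The colon epithelium marker Krt8 was higher in the same pair (1.45 ± 0.19, limma adjusted p = 0.0142). It was the only one of 3 such markers tested to be called, beside the same 12.5% of all tested genes. Col3a1 and Krt8 passed the filter only through the CT26_102 pair, so their direction between stems was fixed by the filter. Their calls therefore add nothing to these shares, which leaves Col1a1 alone among the fibroblast markers. The part of all these markers in the chemokine differences was not tested. In bulk RNA, a change in the level per cell and a change in the share of cells that express a gene cannot be told apart.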

How the data were processed

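Per the labels' protocols, 4 libraries were sequenced from RNA isolated with RNeasy columns and prepared with a SMARTer mRNA kit. The deposited table gives FPKM per gene and library as computed by the authors; for its aligner, counting tool and strandedness no statement is given in the sources used here. GRCm38 and mm10 are named as builds in the submitters' processing notes. Positions and exonic lengths came from GENCODE M21 (GRCm38), which held 99.67% of the 55335 identifiers. Depth was estimated as the smallest read total that made values below 5 reads whole numbers of reads within 0.02 reads (32.53% to 34.03% of such values), for genes of at least 300 bases, and is approximate. No count intervals were computed.

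Genes with at least 1 FPKM in at least 2 libraries (11955) were fitted as log2(FPKM + 1) with limma 3.58.1 in R 4.3.3 (empirical Bayes with a mean-variance trend), with title stem and labelled group as terms. P-values are two-sided, with Benjamini-Hochberg adjustment over all tested genes and a threshold of 0.05. "Rose", "fell", "higher" and "lower" as calls refer to this fit. The procedure was tested on simulated data, with variances drawn from limma's own fit and the same suffix effect in both stems. It therefore cannot judge the calls in these data, where the suffix difference can vary between stems. Samples were grouped by the submitters' labels. Alternatives left out the second term or a library, changed the pseudocount, filter, scaling or variance trend, or removed a trend with gene length. Named by rule were the 8 chemokines, Fosl2, pathway list genes past the threshold and the 2 nearest patterns per tested chemokine. Cell type markers past the threshold are named too, and other list genes were chosen with their values known. The 8 genes, the gene lists and the tests were chosen with earlier results of these data known. Some members of the gene lists are not reported here, and protein sequences were not analysed here.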

Additional observations from a re-analysis of the deposited data

Results flagged for a closer look

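With the suffix R, Cxcl16 moved in opposite directions in the 2 pairs, by 0.37 log2 units in the CT26_102 pair and by -0.18 in the CT26_CTL pair. Between stems (CT26_102 minus CT26_CTL), Rela differed by -0.54 without the suffix and by 0.34 with it. Each of these rests on 1 library per combination, and the differences of direction were not tested.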

How the results depend on the processing

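Without the second term in the fit (no replicate block, the stems or suffixes not paired), Cxcl10, Ccl5 and Ccl20 kept their log2 differences for the stem (-2.45, -1.88 and -1.37), as did Cxcl10 and Ccl5 for the suffix (2.70 and 1.91), with larger errors, and no call remained. Genes called then numbered 1 for the suffix and 34 for the stem, against 1541 and 2623. Without the filter, these 5 calls were lost at the same differences and limma called 0 genes in either comparison, while 4937 (suffix) and 5802 (stem) had an unadjusted p under 0.05. In the other tested settings with all 4 libraries (pseudocounts, a looser filter, both scalings, no trend, length trend removed), each of the 5 calls held, and the suffix difference of Ccl20 passed in none of them. No gene of the pathway lists was called without the second term or without the filter.

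With both terms kept, leaving out 1 library leaves the difference of the remaining pair, with no residual degree of freedom and hence no test and no count of genes. It was between 2.25 and 3.15 for Cxcl10, 1.63 and 2.20 for Ccl5, and 0.34 and 0.73 for Ccl20 (suffix), and between -2.90 and -2.01, -2.17 and -1.60, and -1.57 and -1.18 (stem). For Cxcl16 the suffix difference was 0.37 without either library of the CT26_CTL pair and turned to -0.18 without either library of the CT26_102 pair. Leaving out a library and the second term together mixes stem with suffix, and a lone library is then assumed to vary like the others. Without CT26_102, CT26_102_R, CT26_CTL and CT26_CTL_R in turn, the suffix difference was then 1.25, 3.70, 4.15 and 1.70 for Cxcl10 and 1.11, 3.0, 2.71 and 0.83 for Ccl5. That of Ccl20 was -0.25 to 1.32, turning negative without CT26_102 (-0.25) or CT26_CTL_R (-0.06). The stem difference was -0.88, -4.02, -3.58 and -1.33 for Cxcl10, -1.07, -2.70, -2.98 and -0.78 for Ccl5, and -1.01, -1.74, -1.55 and -1.20 for Ccl20. None of these passed, and genes called numbered 6, 3, 11 and 2 (suffix) and 4, 16, 7 and 0 (stem). The cause of the 2 changes of sign was not tested.

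Low levels depended on the pseudocount. With 0.1 and 0.5 the difference of Ccl20 was 1.54 and 0.79 (suffix) and -2.95 and -1.87 (stem), with its calls as before. For genes under the filter, with 0.1 the suffix difference was 1.04 for Cxcl11, 0.35 for Cx3cl1 and -0.11 for Cxcl16, against 0.22, 0.05 and 0.10, and the stem difference was -1.27, 0.53 and 1.80, against -0.26, 0.07 and 0.45. With 0.5 Cxcl11 was at 0.38 and -0.46. Depth limits these 3 genes: at 0 to about 50 reads per library their direction rests on few fragments.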
